A study of Mus musculus with 18 samples.

Results

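Gene expression in whole brain of 2 estrogen receptor knockout lines, pooled, was compared with that of wild type C57BL/6 mice. The knockout side held the 12 arrays titled as ERKOalpha or ERKObeta, 6 of each line, and the wild type side held the 6 arrays titled as B6, so that all 18 arrays of the series entered. Members were the 18161 genes with a probe set that names 1 symbol, each read by its brightest probe set. All mice were 8 weeks old and of the C57BL/6 strain, and each genotype (wild type, ERalphaKO and ERbetaKO) gave 3 female and 3 male brains, titled FB and MB. Brains were frozen and their total RNA was hybridised to Affymetrix mouse 430 2.0 arrays. The allele, the part of the gene removed and the breeding of the lines are not given in the sources used here, and no label says which samples are separate animals. The p-values therefore speak only of the variation among these arrays. Both lines were set against the same 6 wild type arrays, and a difference carried by those arrays alone cannot be told apart from a response that the lines share.

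Estrogen receptors alpha and beta are nuclear receptors that bind estradiol and regulate genes from the estrogen response element, a palindromic DNA motif, or through other transcription factors. In brain they act mainly in hypothalamus, preoptic area, amygdala and hippocampus. Immediate early genes, the group that leads the results below, are transcribed within minutes of neuronal firing or of growth factor and stress signals, without new protein synthesis. Many are driven by the transcription factors CREB, which binds the cAMP response element (CRE), and SRF, which binds the CArG box.

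Values are MAS5 signals, a linear scale on which each array has the same trimmed mean. Differences are knockout minus wild type on the scale log2(signal + 63.63), with the FB or MB class as a covariate, and a gene was called when its limma p, adjusted by the Benjamini-Hochberg method over all 18161 genes, was under 0.05. The neuronal markers Snap25, Syt1, Slc17a7 and Gad1 had mean signals of 4653 to 15440 in both groups. Correlations between arrays lay between 0.957 and 0.987. The Esr2 probe set went against its label, at 271 ± 98.0 (SD, n = 6) in the ERbetaKO-labelled arrays and 28.7 ± 11.4 in wild type (exact permutation p = 0.00217, two-sided), and the brightest Esr1 probe set read 129 ± 21.6 in ERalphaKO-labelled arrays against 143 ± 35.9 (exact permutation p = 0.511). Its other probe sets were higher in that line, at 230 against 141 and 65.0 against 38.6. Where a probe set lies outside the deleted stretch it cannot test a label, and the reason for the higher Esr2 signal was not tested. These values leave the labels unchecked, and the lines carry their labels' names here. Cerebellar content differed between arrays: Pcp2, a Purkinje cell gene, ranged from 117 to 10790, with 7 arrays under 500 (3 of them ERbetaKO-labelled). The ratio of Actb signal at the 3' end to that at the 5' end, a sign of RNA integrity, was 1.38 ± 0.172 (SD, n = 12) on knockout and 1.20 ± 0.0209 (n = 6) on wild type arrays (exact permutation p = 0.0115, adjusted over 11 control measures 0.127), at 1.28 in the ERalphaKO-labelled and 1.48 in the ERbetaKO-labelled line. The same ratio for other control genes went the other way. It was 0.757 on knockout and 0.769 on wild type arrays for Gapdh (exact permutation p = 0.184). For pyruvate carboxylase it was 2.285 and 2.599 (exact permutation p = 0.117).

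Against wild type, 365 of the 18161 genes were called in the knockouts together (2.01%), 149 higher (0.82%) and 216 lower (1.19%). Before adjustment 2749 of the 18161 genes had a limma p under 0.05, which is the background of the unadjusted counts below. The changes were small. The median size of a called difference was 0.36 on the log2 scale, and 10 genes passed 1, of which 7 rose (Fos, Dusp1, Gm13306, Arc, Npas4, Egr2 and Fosb) and 3 fell (Wdfy1, E2f5 and Foxo4).  For 35 genes (0.193%) all 12 knockout values lay above all 6 wild type values and for 68 (0.374%) below, and 91 of these 103 genes were called. Scaling the arrays to a common median, which moved the median difference of all genes by -0.06, gave 39 higher and 185 lower, or 17.4% higher in place of 40.8%. The count depended on single arrays: it was 158 to 219 with any one of the 6 wild type arrays left out and 239 without ERbetaKO-labelled male replicate 1. With the Actb ratio as a covariate 172 genes were called, 107 higher and 65 lower, and 114 of the 365 were among them. Of the genes named below, Fosl2, Fbln2, Mt1, Ddit3, Haghl, Foxo4, Tmem267, Zfp423, Pclo, Srsf4, Aldoc, Slc7a10, Sox10, C1qa and Cldn5 lost their calls in that fit.

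Immediate early genes gave 6 of the 7 rises past 1 on the log2 scale. Of 27 measured, 14 rose, none fell and 13 did not pass, so that 51.9% were called where 2.01% of all genes were. Their median difference was 0.54 against -0.01 over all genes, and 25 of the 27 differences were positive, against 8713 of 18161 over all genes. Each line against wild type gave a median of 0.60 (ERalphaKO-labelled, 16 rose) and 0.64 (ERbetaKO-labelled, 14 rose). Over all genes 2.02% and 2.01% rose in these lines, with medians of -0.036 and 0.023. The list was chosen with its behaviour in these data already known, so its count describes the arrays and is not independent evidence.

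The AP-1 subunits came first. Fos, whose protein pairs with Jun proteins to bind AP-1 sites, had signals of 466 at the lowest, 808 at the median and 888 at the highest on the 6 wild type arrays. On the 12 knockout arrays these were 1797, 2587 and 3226. All 12 knockout values thus lay above every wild type value, and Fos rose by 1.68 ± 0.13 (SE, adjusted p = 7.68e-07), the smallest adjusted p of all genes. Fosb rose by 1.05 ± 0.19, from 209 ± 47.3 to 519 ± 188, with 11 of 12 knockout arrays above the highest wild type array. Junb rose by 0.92 ± 0.16 and Fosl2 by 0.85 ± 0.19, with 11 and 9 arrays above. Jun itself, the partner of Fos, differed by -0.05 ± 0.08 (adjusted p = 0.830), at 1432 ± 149 against 1488 ± 181, and all 12 knockout arrays lay within the wild type range.

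**Figure D1:**
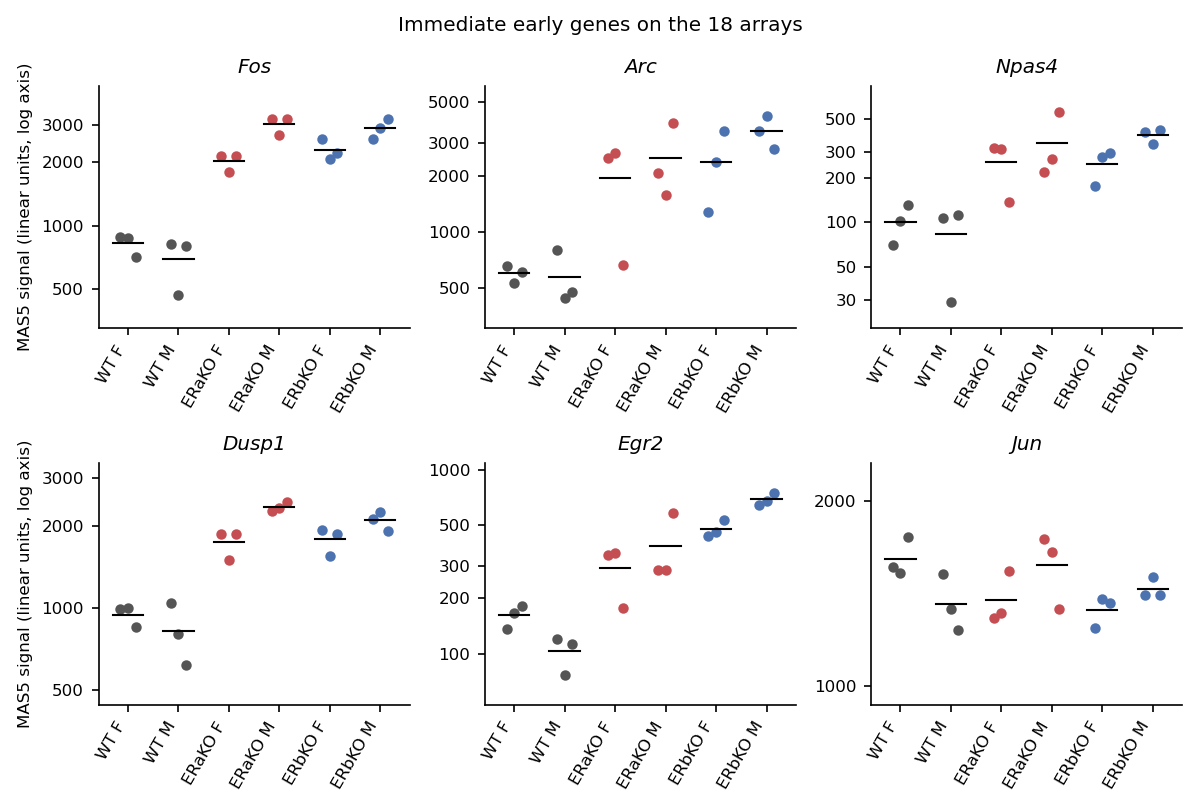
MAS5 signal (linear units on a log axis) of 6 immediate early genes on each of the 18 arrays, by genotype and sex (F female, M male, 3 arrays per group, line at the group mean). Fos, Npas4 and Dusp1 show all 12 knockout points above the 6 wild type points, Arc and Egr2 show 11 of 12, and Jun shows overlapping groups.

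Among the neuronal effectors and transcription factors, Arc had the largest difference of any called gene. Arc protein promotes the removal of AMPA receptors from synapses. Its signal was 441, 569 and 800 (lowest, median, highest) in wild type and 664, 2588 and 4182 in the knockouts, a rise of 1.91 ± 0.28 (SE, adjusted p = 0.00221). A single knockout array, ERalphaKO-labelled female replicate 3, lay within the wild type range. Npas4, a transcription factor switched on by calcium entry into neurons, had 29.2, 104 and 131 in wild type and 136, 303 and 552 in the knockouts. Its groups did not overlap, and it rose by 1.24 ± 0.20 (adjusted p = 0.00366). The wild type signal lies near the added 63.63, so the log2 size understates the change.

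The zinc finger factors of the Egr family were less uniform. Egr2 rose by 1.36 ± 0.22 (adjusted p = 0.00398), from 76.8, 128 and 182 (lowest, median, highest) to 177, 448 and 754, and its other probe set gave 1.63. Egr4 rose by 0.87 ± 0.14. Egr1, the brightest of the family at 8203 ± 1815 against 5882 ± 976, had 0.46 ± 0.14 (adjusted p = 0.101), and Egr3 had 0.53 ± 0.18 (adjusted p = 0.145). Of the orphan nuclear receptors of the Nr4a family, Nr4a1 rose by 0.96 ± 0.18 and Nr4a3 by 0.83 ± 0.18, while Nr4a2 had 0.73 ± 0.22 (adjusted p = 0.107). Nr4a2 stood at 833 ± 392 in wild type and 1366 ± 370 in the knockouts, and 4 of 12 knockout arrays lay above the highest wild type array. Its other probe sets ran from -0.04 to 0.53, the highest with a limma adjusted p over all probe sets of 0.0462. Other Nr4a3 probe sets, at mean signals of 91.8 and 20.8, had 0.11 and 0.05 (limma unadjusted p = 0.355 and 0.622).

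Feedback and growth-arrest members rose as well. Dusp1, the phosphatase that switches off MAP kinases, had 614, 918 and 1044 in wild type and 1503, 1926 and 2454 in the knockouts. These ranges were well apart, and Dusp1 rose by 1.13 ± 0.11 (adjusted p = 1.52e-05). Gadd45b, a stress protein with a role in DNA demethylation, rose by 0.73 ± 0.11 and Btg2, an inhibitor of proliferation, by 0.54 ± 0.09, both with all 12 knockout values above wild type. The other Btg2 probe set, about as bright, had 0.06 (unadjusted p = 0.584). Ier2 rose by 0.54 ± 0.13. The members that did not pass beside those above were Ier5 at 0.50, Ptgs2 at 0.35, Klf4 and Atf3 at 0.33 each, Gadd45g and Homer1 at 0.24 each, Ccn1 at 0.21, Bdnf at 0.19 and Nptx2 at -0.09. Other probe sets of some of these stood higher, such as 1 of Homer1 at 0.97 and 1 of Ccn1 at 0.47 (adjusted p over all probe sets 0.0344 and 0.0227), chosen after their values were seen.

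Averaged over the 27 genes, the log2 level of each array restated these differences and is not separate evidence. Wild type arrays lay between 8.86 and 9.43 and knockout arrays between 9.46 and 10.23, without overlap. Both ends of the knockout range came from the ERalphaKO-labelled line, male replicate 3 at the top and female replicate 3 at the bottom. Averaged alone, the members not past the threshold overlapped, at 9.22 to 9.8 on wild type and 9.47 to 9.97 on knockout arrays. Fitted with the Actb ratio as a covariate 13 of the 27 rose, and with the score of cerebellar markers as a covariate 15 rose. On the 11 arrays with a Pcp2 signal of at least 500, 2 rose, and on the FB and MB arrays alone 2 and 3, each of these fits having fewer arrays. Without wild type male replicate 1, 2 or 3 in turn 11 rose. The calls of Fosl2, Nr4a3 and Ier2 were lost without any one of those 3 arrays, that of Fosl2 also without wild type female replicate 1 and that of Ier2 also without wild type female replicate 3 (adjusted p up to 0.0792, 0.0758 and 0.0950).

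**Figure D2:**
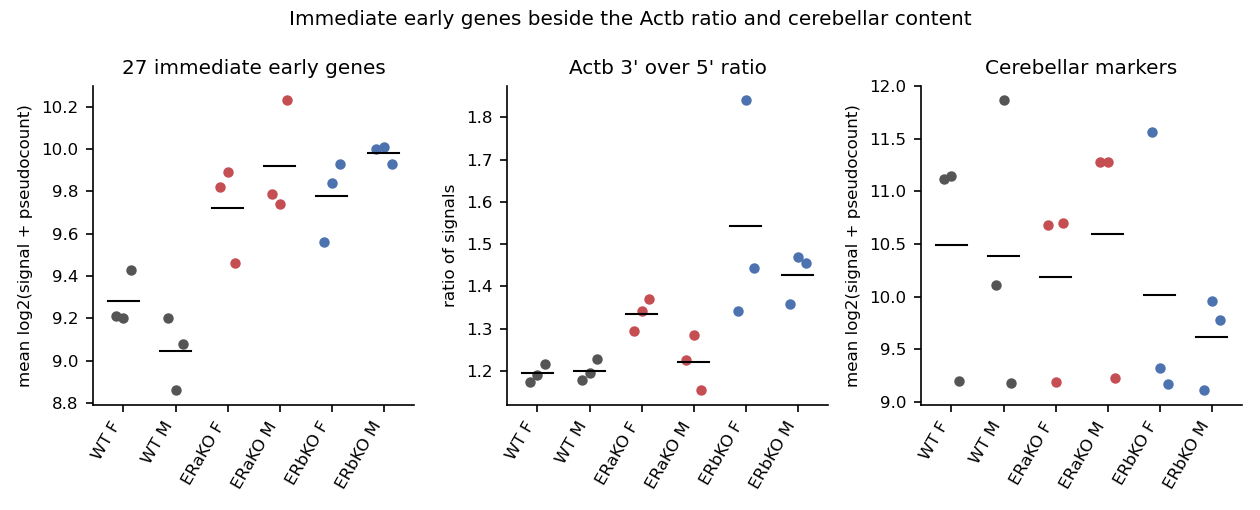
For each of the 18 arrays, by genotype and sex with a line at the group mean, the mean log2 level of the 27 immediate early genes (left), the Actb 3' over 5' signal ratio (middle) and the mean log2 level of cerebellar markers (right). The left panel separates all 12 knockout arrays (9.46 to 10.23) from wild type (8.86 to 9.43), the middle panel reaches 1.84 on 1 ERbetaKO female array, and the right panel spreads widely within every genotype.

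Promoters of the called immediate early genes were searched for motifs of the factors named above. Windows of 300 bases, from 250 before to 50 after the RefSeq start site (GRCm38.p6), were at hand for 12 of the 14 and for 14461 of all 18161 genes, and a gene counted when any of its listed windows held the motif on either strand. The CRE core TGACG was found in 10 of the 12 (83.3%) and in 30.01% of all genes. The full CRE TGACGTCA, which contains that core on each strand, was found in 2 (16.7%) against 2.92%, and the CArG box in 1 (8.33%) against 1.58%. None of the 12 held the AP-1 site TGANTCA (7.54% of all genes) or the palindromic estrogen response element (0.0346%). Sequence outside the windows was not searched, so a motif farther from the start site would not be counted. Among all 149 genes called higher, 114 had a window and 43.9% of these held the CRE core, and among the 216 called lower 184 had a window and 35.9% held it. The upstream 250 bases are printed, 5′ to 3′ on the gene's own strand with motifs in capitals, for the 5 called immediate early genes that had a window and the largest difference in the line that moved less. For Egr2 the printed window is 1 of 5 listed, taken because windows with a full CRE or a CArG box were preferred. The CRE core counted for Egr2 lies in another of its windows. The CRE core and the AP-1 site were added to the search after the data were seen.
Fos: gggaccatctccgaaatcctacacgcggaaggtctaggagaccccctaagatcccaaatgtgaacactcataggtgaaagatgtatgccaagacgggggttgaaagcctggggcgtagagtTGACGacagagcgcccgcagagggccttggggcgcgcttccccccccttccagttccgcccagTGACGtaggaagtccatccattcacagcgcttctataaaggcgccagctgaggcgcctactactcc
Npas4: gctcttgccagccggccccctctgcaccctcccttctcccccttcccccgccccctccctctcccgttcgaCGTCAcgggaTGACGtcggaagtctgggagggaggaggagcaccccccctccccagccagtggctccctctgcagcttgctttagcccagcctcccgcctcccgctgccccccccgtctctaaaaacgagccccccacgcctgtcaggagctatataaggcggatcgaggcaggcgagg
Dusp1: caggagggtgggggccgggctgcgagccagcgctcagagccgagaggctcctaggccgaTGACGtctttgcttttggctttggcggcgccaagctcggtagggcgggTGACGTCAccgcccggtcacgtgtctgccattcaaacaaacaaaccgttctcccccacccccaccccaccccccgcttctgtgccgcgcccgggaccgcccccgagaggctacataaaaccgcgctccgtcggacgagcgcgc
Egr2: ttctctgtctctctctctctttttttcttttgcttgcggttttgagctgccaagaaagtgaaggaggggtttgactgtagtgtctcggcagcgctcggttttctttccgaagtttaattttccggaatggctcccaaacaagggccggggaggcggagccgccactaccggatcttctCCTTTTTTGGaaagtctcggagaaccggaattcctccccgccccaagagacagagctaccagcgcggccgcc
Fosb: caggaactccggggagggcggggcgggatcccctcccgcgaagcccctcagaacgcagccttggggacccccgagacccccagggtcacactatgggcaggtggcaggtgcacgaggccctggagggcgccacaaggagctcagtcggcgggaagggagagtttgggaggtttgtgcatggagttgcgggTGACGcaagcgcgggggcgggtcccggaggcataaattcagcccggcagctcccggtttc

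These windows lie at chr12:85473640-85473889 on the plus strand (Fos), chr19:4989972-4990221 on the minus strand (Npas4), chr17:26508473-26508722 on the minus strand (Dusp1), chr10:67537316-67537565 on the plus strand (Egr2) and chr7:19310046-19310295 on the minus strand (Fosb). In the Fos window the capitals mark 2 CRE cores, 129 and 66 bases before the start site. In the Npas4 window they mark 2, of which the first reads CGTCA, the core on the other strand, 179 and 169 bases before. The Dusp1 window holds a full CRE 143 bases before the start site and a further core at 191. In the Egr2 window they mark the CArG box 72 bases before the start, and in the Fosb window a core at 60. A match describes letters only, and no binding was measured here.

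Among genes with all 12 knockout values above wild type, the rule took the 12 with the largest difference shared by both lines, and 5 of these are the immediate early genes Fos, Npas4, Dusp1, Gadd45b and Btg2. Gm13306, a predicted gene, had 119, 163 and 179 (lowest, median, highest) in wild type and 233, 684 and 1106 in the knockouts and rose by 1.73 ± 0.20 (adjusted p = 0.000345). Ddit4, an inhibitor of the growth kinase mTORC1 that responds to glucocorticoids and stress, had 1139, 1336 and 1683 against 1802, 2138 and 2698. It rose by 0.62 ± 0.09 (adjusted p = 0.00137), the difference being 0.63 and 0.61 in the ERalphaKO-labelled and ERbetaKO-labelled line.

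Klf10, a zinc finger factor induced by TGF-beta, rose by 0.75 ± 0.12, and Tiparp, an ADP-ribosyltransferase induced through the aryl hydrocarbon receptor, by 0.58 ± 0.08. Both other Tiparp probe sets were positive as well, at 0.28 and 0.47. Zc3h12c, of a family of proteins that degrade messenger RNAs of inflammation, rose by 0.52 ± 0.10. The extracellular matrix gene Fbln2 rose by 0.76 ± 0.17, a call lost without wild type female replicate 1, female replicate 2 or male replicate 2 (adjusted p up to 0.0720). Zfp950, a zinc finger gene, rose by 0.71 ± 0.11 on its brightest probe set, but another of its probe sets fell by 0.63 (adjusted p over all probe sets 0.0269), so the direction of the gene is uncertain.

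Of 16 glucocorticoid-responsive genes 2 rose, Ddit4 and Sgk1, and 1 fell, the metallothionein gene Mt1, so that 18.75% were called against 2.01% of all genes, with a median of 0.11. Sgk1, a kinase named for its induction by serum and glucocorticoids, rose by 0.89 ± 0.14 (adjusted p = 0.00315), from 2178 ± 857 to 3921 ± 700, with overlapping groups since the highest wild type array reached 3731. Mt1 fell by 0.39 ± 0.08, all 12 knockout values lying below wild type, and its call was lost without wild type female replicate 1 or male replicate 2, after quantile normalization, with the Actb ratio as a covariate and on its other probe set. Of 24 heat shock and chaperone genes Hspa1b and Dnajb1 rose, by 0.81 ± 0.18 and 0.53 ± 0.08, and Ddit3, a transcription factor of the unfolded protein response, fell by 0.50 ± 0.11 (12.5% called), the median of the 24 differences being close to 0. Hspa1b has a near-identical copy, Hspa1a, and its probe sets may read both. The calls of Hspa1b and Ddit3 were lost without any one of 4 and of 6 single arrays (adjusted p up to 0.0720 and 0.0821).

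Among 17 circadian clock genes Bhlhe40, a repressor of clock genes that also responds to activity, rose by 0.57 ± 0.10. The other 16 did not pass (5.88% called against 2.01% of all genes). None of the 15 MAP kinase feedback genes other than those above passed (4 had an unadjusted p under 0.05), with Dusp14 at 0.50 and Dusp6 at 0.37.

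The lists of estrogen biology were short. Of all genes 2.01% were called in the pooled fit, and 2749 of 18161 had an unadjusted limma p under 0.05. In the ERbetaKO-labelled line against wild type 2.01% of all genes rose and 3.04% fell. None of 17 estrogen-responsive genes passed in limma's pooled fit, while 2 fell in the ERbetaKO-labelled line against wild type (4 had an unadjusted p under 0.05), and their median difference was -0.08. Pgr, the progesterone receptor and a classical estrogen target, was at 1078 against 964, a difference of 0.15 ± 0.10 (adjusted p = 0.515). Greb1, another such target, had -0.19 ± 0.19 and Oxtr, the oxytocin receptor, 0.16 ± 0.17. Of 16 steroid receptors and coregulators none passed (1, Esr2, had an unadjusted p under 0.05, and 1 rose in the ERbetaKO-labelled line), with a median of 0.03. Esr1 had 0.13 ± 0.14 and Nr3c1, the glucocorticoid receptor, 0.10 ± 0.05. Nor did any of 14 enzymes and carriers of neurosteroid metabolism pass (4 with an unadjusted p under 0.05, and 1 fell in the ERbetaKO-labelled line), Hsd17b12 being nearest at -0.28 ± 0.08 (adjusted p = 0.0928). A difference that misses the threshold is not shown to be absent.

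**Figure D3:**
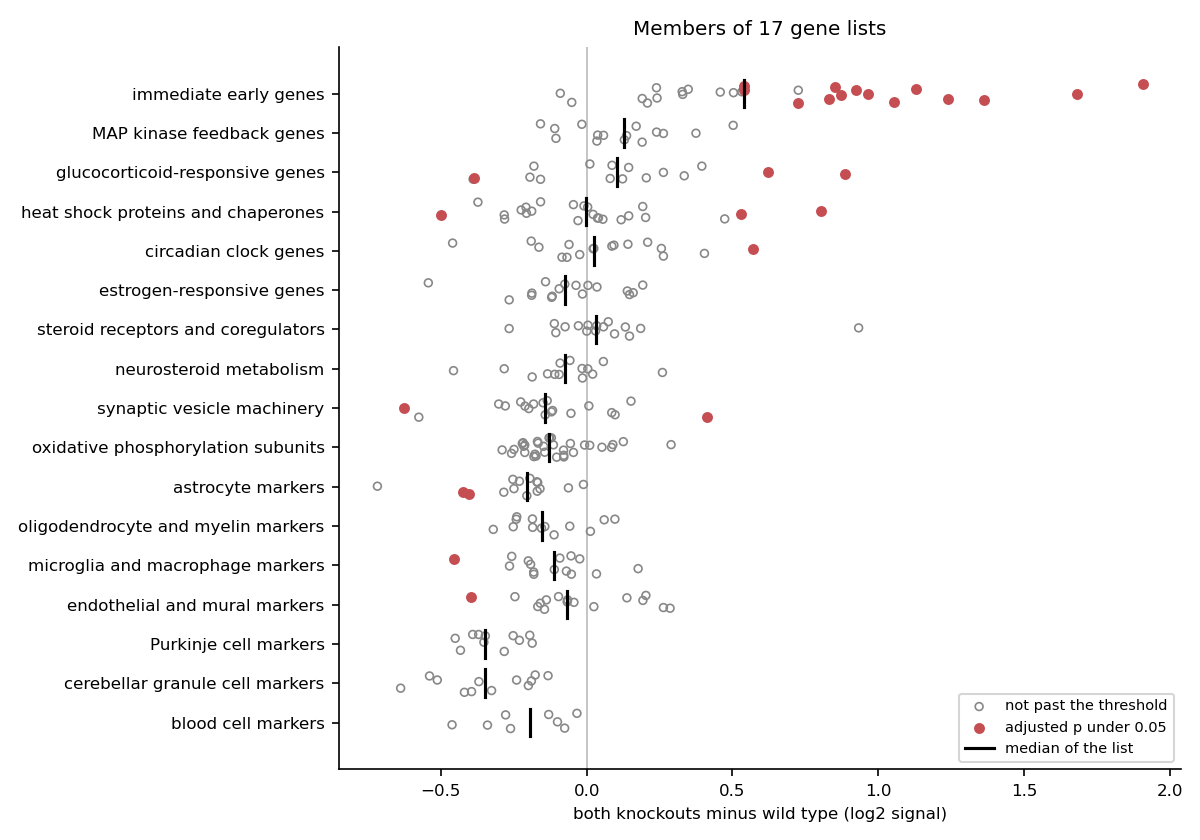
Difference of both knockouts from wild type (log2 signal, horizontal axis) for each measured member of 17 gene lists, with filled points past the adjusted p of 0.05, open points not past it and a bar at the list's median. The immediate early genes reach from -0.09 to 1.91 with 14 filled points, while the astrocyte, Purkinje, granule and blood lists lie wholly below 0.

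The shared falls were named by the same rule among genes with all 12 knockout values below wild type. Wdfy1, an adaptor that Toll-like receptors use on endosomes, had signals of 788, 879 and 1184 (lowest, median, highest) in wild type and 157, 310 and 577 in the knockouts. The ranges were apart, and it fell by 1.46 ± 0.19 (adjusted p = 0.00132). Of its 4 other probe sets, 3 had negative differences and 2 passed over all probe sets, at -1.07 and -0.82. E2f5, a cell cycle transcription factor singled out after its values were seen, fell by 1.77 ± 0.31, from 1710 ± 1099 to 415 ± 195, but its wild type values ran from 648 to 3521 and its groups overlapped.

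At the synapse, Gabra2, the alpha 2 subunit of the inhibitory GABA-A receptor, had 1147, 1447 and 1897 in wild type and 534, 806 and 1026 in the knockouts, and fell by 0.86 ± 0.12 (adjusted p = 0.00137). Both further bright probe sets of Gabra2 fell too, by 1.20 and 0.82. The other 8 GABA-A receptor subunits measured did not pass, and 6 of the 9 had a positive difference. Wdfy1 and Gabra2 are the 2 called members (18.2%, against 2.01% of all genes) of 11 genes listed for varying in level between mouse strains. The labels give C57BL/6 for every array. In that list Erdr1 and Mid1 had pooled differences of 2.15 and 1.23 that did not pass (adjusted p = 0.106 and 0.200), being 3.76 and 2.22 in the ERalphaKO-labelled line and 0.53 and 0.25 in the other.

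Ncs1, a neuronal calcium sensor, fell by 0.75 ± 0.12, from 4070 ± 850 to 2379 ± 369, and both its other probe sets were negative at -0.43 and -0.48. Rph3a, rabphilin, which binds Rab3 on synaptic vesicles, had 5977, 6510 and 8839 in wild type and 3447, 4397 and 5372 in the knockouts and fell by 0.63 ± 0.10 (adjusted p = 0.00299). In the list of 19 synaptic vesicle genes it was the single fall, and 10.5% of the list was called against 2.01% of all genes. Pclo, a scaffold of the active zone, rose by 0.41 ± 0.10, a call lost in 11 of the 18 fits that leave out 1 array (highest adjusted p 0.0929). Clptm1, a membrane protein that limits the delivery of GABA-A receptors to the surface, fell by 0.44 ± 0.08, and Spock2, a secreted proteoglycan of brain, by 0.52 ± 0.09.

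**Figure D4:**
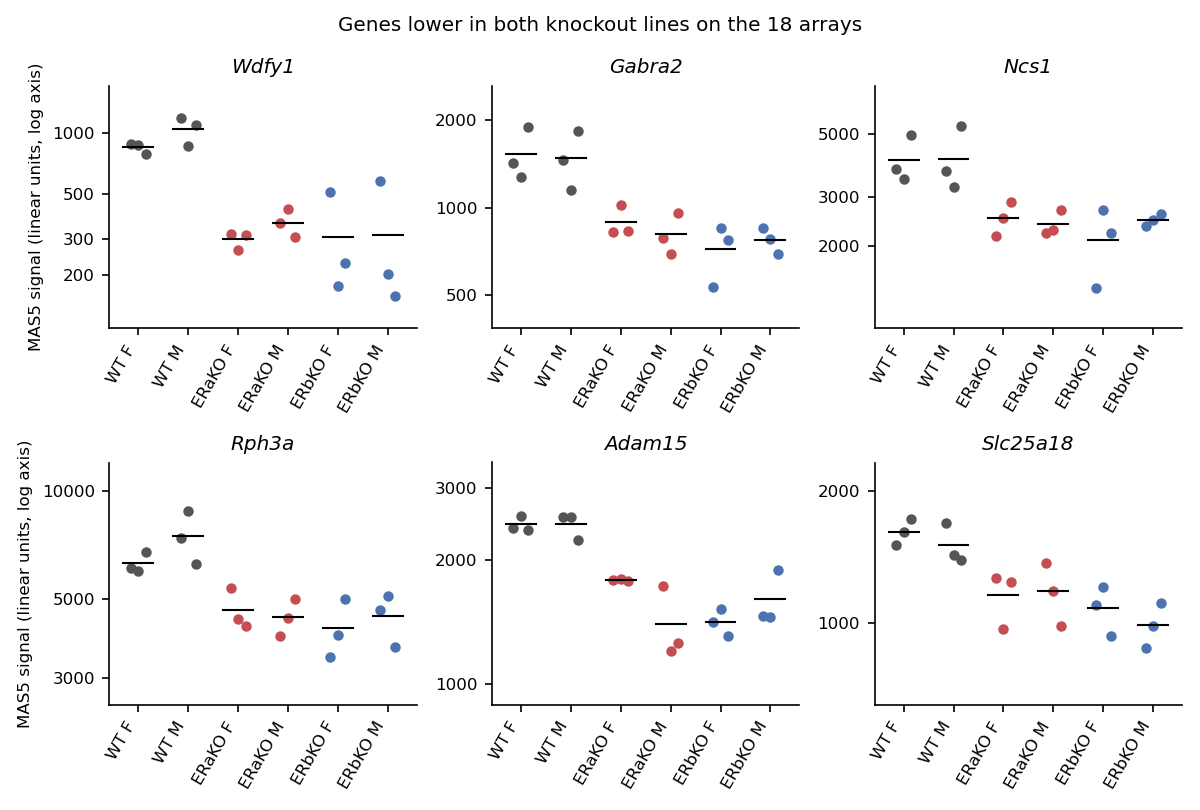
MAS5 signal (linear units on a log axis) of 6 genes lower in the knockouts on each of the 18 arrays, by genotype and sex with a line at the group mean. All 12 knockout points lie below the 6 wild type points in each panel, as the rule for naming them required.

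Adam15, a membrane metalloprotease, fell by 0.65 ± 0.09, from 2446 ± 132 to 1552 ± 239, and its 3 other probe sets were negative. Rnf208, a RING finger protein, fell by 0.70 ± 0.10 and Tmcc2 by 0.56 ± 0.08, both more in the ERbetaKO-labelled line (differences between the lines of 0.30 and 0.25, adjusted p = 0.0354 and 0.0272). Haghl fell by 0.58 ± 0.11, while its 3 other probe sets had -0.11, -0.15 and -0.04. Slc25a18, a mitochondrial glutamate carrier, fell by 0.48 ± 0.08. Eif1ax, a translation initiation factor, fell by 0.46 ± 0.08 on the chosen probe set, while its others were at 0.14 and 0.29 with unadjusted p of 0.0114 and 0.0267, so that its direction is uncertain.

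**Figure D5:**
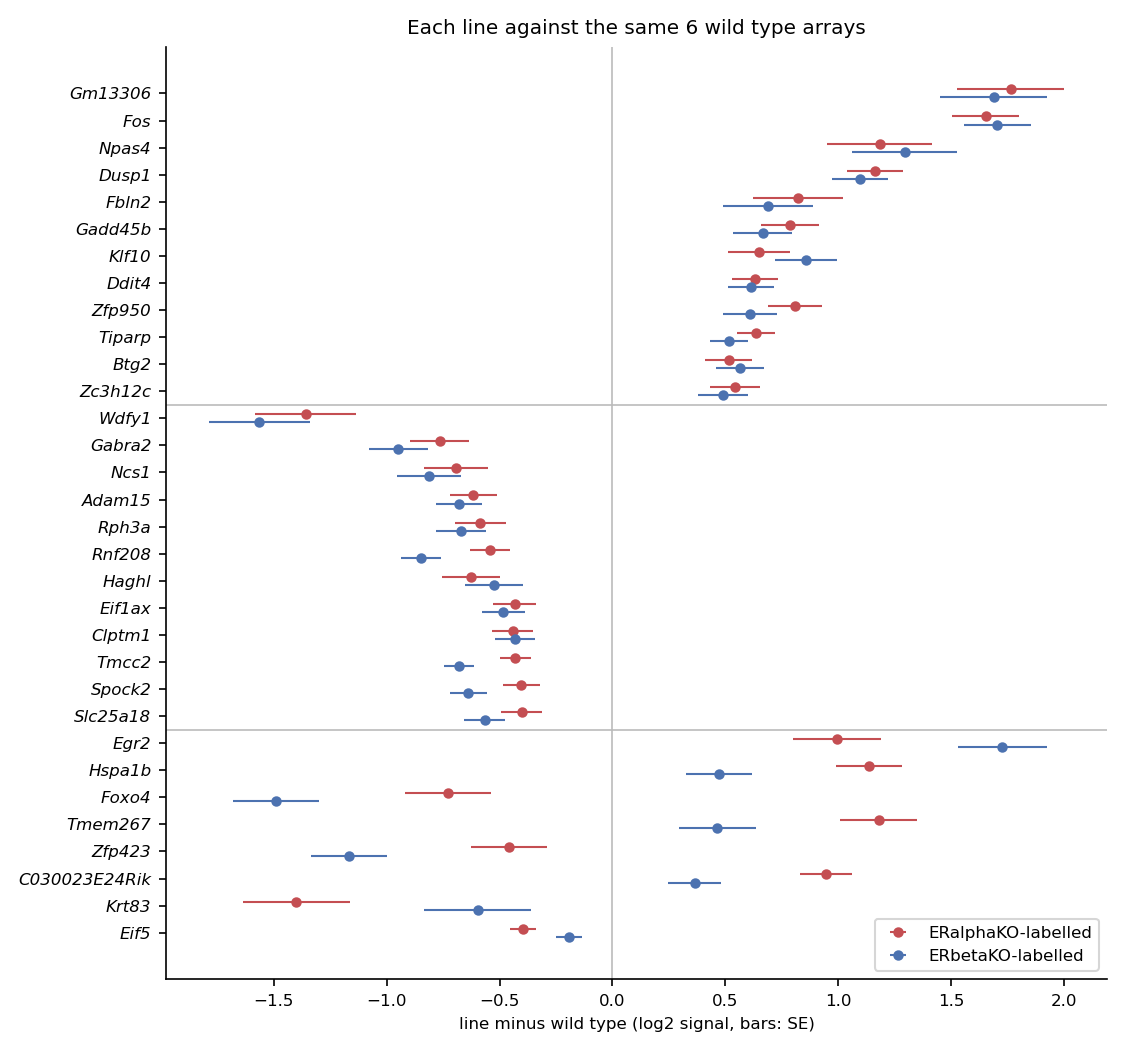
Difference of each line from the same 6 wild type arrays (log2 signal, points with SE bars) for the 12 shared rises, the 12 shared falls and 8 called genes on which the lines differed. In the upper blocks both lines' points lie on the same side, as the naming rule fixed, and in the lowest block the points are 0.20 to 0.80 apart.

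For 28 of the 365 called genes (7.67%) the lines also differed from each other, against 11.4% of all genes, and 25 of the 28 were higher in the ERalphaKO-labelled line. Since a pooled call favours genes on which the lines are alike, this share is a description. Egr2 stood at 338 ± 135 in the ERalphaKO-labelled and 586 ± 127 in the ERbetaKO-labelled arrays, a difference of -0.73 ± 0.20 (SE, adjusted p = 0.0247), while Fos, at 2535 ± 598 and 2601 ± 426, did not pass (-0.05 ± 0.15). Hspa1b went the other way, at 1105 ± 301 and 657 ± 74.1. Foxo4, a transcription factor held back by insulin signalling, fell by 1.11 ± 0.22 in all and was lower in the ERbetaKO-labelled line, at 66.0 ± 30.6 against 158 ± 58.4. Its other probe set had 0.02 (unadjusted p = 0.915), so the change of the gene is uncertain. The lines differed likewise on Tmem267, Zfp423 and C030023E24Rik, by 0.72, 0.71 and 0.58. They also differed on Krt83 and Eif5, with the ERbetaKO-labelled line higher by 0.80 and 0.20, respectively. Other Eif5 probe sets had pooled differences of -0.102, -0.285, 0.183 and 0.115, so its direction is uncertain. On the one at -0.285 the ERbetaKO-labelled line was the lower, at -0.388 against -0.183. Pooled calls of Tmem267, Zfp423 and Krt83 were lost without any one of 13, 12 and 15 of the 18 arrays, those of C030023E24Rik and Eif5 without any one of 6 and 3. Against wild type on its own, the ERalphaKO-labelled line had 773 called genes (4.26%), 366 higher (2.02%) and 407 lower (2.24%). The ERbetaKO-labelled line had 918 (5.05%), 365 higher (2.01%) and 553 lower (3.04%). Between the lines, 779 genes (4.29%) were higher and 1292 (7.11%) lower in the ERalphaKO-labelled line. Median scaling gave 367 genes for the ERalphaKO-labelled line, 1572 for the other (126 higher, 1446 lower), and 1592 higher and 578 lower between the lines.

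Whether the shared difference depended on sex was tested by the interaction of knockout with the FB or MB class. It passed for 1 gene (0.00551%), Tango6, with a log2 difference of 0.81 in FB and -1.10 in MB arrays, at signals of 12.5 to 155 (limma adjusted p = 0.00672; 565 genes had an unadjusted p under 0.05). No immediate early gene passed. Of the 14 that rose, 13 had a larger difference in MB than in FB arrays, the medians being 1.3 and 0.77. Among all 365 called genes, 221 had the larger difference in MB arrays. Fos had 1.32 in FB and 2.04 in MB, Arc 1.58 and 2.23, and Nr4a1 0.59 and 1.34. The genes share their arrays, so their common direction is not independent evidence, and 4 of the 14 had an unadjusted interaction p under 0.05, all with an adjusted p of 1.0. Among all 365 called genes, 14 had an unadjusted interaction p under 0.05.

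Markers of other cell types were examined next. Less RNA per cell and fewer cells of a type cannot be told apart in whole tissue. Of 15 astrocyte markers 2 fell, Aldoc, a glycolytic enzyme, by 0.42 ± 0.11 and the amino acid transporter gene Slc7a10 by 0.41 ± 0.09, which is 13.3% of the list against 1.19% lower over all genes. All 15 differences were negative (median -0.20, range -0.72 to -0.01), while over all genes 8713 of 18161 were positive. Averaged over the list, the log2 level was 11.59 to 11.78 on wild type and 11.17 to 11.69 on knockout arrays. Gfap, the intermediate filament of astrocytes, had -0.20 in the ERalphaKO-labelled and -1.23 in the ERbetaKO-labelled line. With the Actb ratio as a covariate Aldoc and Slc7a10 had -0.43 and -0.40 and neither passed. Leaving out 1 array at a time, the call of Aldoc was lost in 16 of 18 fits and that of Slc7a10 in 4 (highest adjusted p 0.130 and 0.0681).

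Single markers fell in 3 further lists, where 1.19% of all genes were called lower. Sox10, a transcription factor of the oligodendrocyte lineage, fell by 0.43 ± 0.11 (1 of 10 precursor markers, 10.0%). The complement gene C1qa fell by 0.45 ± 0.11 (1 of 15 microglia and macrophage markers, 6.67%). Cldn5, a tight junction gene of brain endothelium, fell by 0.40 ± 0.07 (1 of 16 endothelial and mural markers, 6.25%). A single call in so short a list describes the gene, not the cell type. Sox10 was lost without any one of 11 arrays, C1qa without any one of 4, and both in the fit with a replicate block. Cldn5 passed with each array left out in turn. With the Actb ratio as a covariate all 3 were lost. None of 13 oligodendrocyte and myelin markers passed (median -0.16, 2 with an unadjusted p under 0.05, where 2749 of all 18161 genes had one). The 8 blood cell markers were all negative (median -0.20, none past the threshold, 3 with an unadjusted p under 0.05), at mean log2 levels of 7.24 to 7.63 on wild type and 7.12 to 7.66 on knockout arrays. The 11 Purkinje and 12 granule cell markers had medians of -0.35 each with no call and no unadjusted p under 0.05, and their mean log2 level spanned 9.18 to 11.87 on wild type and 9.11 to 11.56 on knockout arrays. With that level as a covariate 553 genes were called, 364 of the 365 among them, and on the 11 arrays with a Pcp2 signal of at least 500, a fit on fewer arrays, 4 were.

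Of 33 splicing factors Hnrnpl and Srsf4 fell (6.06% called against 2.01% of all genes), by 0.62 ± 0.15 and 0.23 ± 0.05. Their calls were lost without any one of 9 and 7 arrays. Psmb7 alone of 26 proteasome subunits fell (3.85%), by 0.32 ± 0.06. No oxidative phosphorylation subunit passed of 32 (median -0.13, 26 negative, 12 with an unadjusted p under 0.05). Nor did any of 18 cytosolic ribosomal proteins (median -0.11, 16 negative, 4 with an unadjusted p under 0.05). Over all genes 2749 of 18161 had an unadjusted limma p under 0.05. The median signal of the genes called lower was 1650, that of the genes called higher 770 and that of all genes 361. Genes called higher had a median span of 35544 bases on GRCm38.p6, those called lower 14383 and all genes 20228.

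Other probe sets of the same genes were set beside the calls. They were read on the same arrays, so they bear on the choice of probe set and not on what sets the groups of arrays apart. Of 448 other probe sets of 228 called genes, 306 (68.3%) had the sign of the chosen one, against 57.3% over all genes, and 111 of them had an unadjusted p under 0.05. A further 19 had the opposite sign at that level. Such a count was not made for the other probe sets of all genes.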

How the data were processed

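RNA of 18 mouse whole brains was measured on 18 Affymetrix arrays. Intensities on a linear scale were deposited for each probe set; the authors made them with MAS5, per the submitters' processing notes; on each array their mean, with 2% trimmed at each end, was 500. From these, control probe sets (64 of 45101) were left out, probe sets naming several genes (932) or none (9160) were set aside, and the brightest probe set of each gene was kept (18161 genes). Symbols came from the platform annotation, updated through RefSeq.

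The fit used limma 3.58.1 in R 4.3.3 (lmFit, and eBayes with an intensity trend) on log2(signal + 63.63), the added value being the 25th percentile of all signals, with knockout and sex as terms and 15 residual degrees of freedom. Differences between lines came from a fit with a mean per genotype, and those between sexes from an interaction. Adjusted p-values are Benjamini-Hochberg over all genes. Single control values were compared by an exact permutation test. Scripts were tested on simulated data. Tables and figures were made in Python 3.11.15 (matplotlib 3.10.9).

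The text names Esr1, Esr2, all immediate early genes, the 12 rises and 12 falls with the largest difference in the less changed line among called genes whose groups did not overlap, up to 4 called members of each other list, up to 5 called genes each way on which the lines differed, and interaction genes. The members and lists were chosen with earlier results of these data known. Array number limits the precision.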

Additional observations from a re-analysis of the deposited data

Results flagged for a closer look

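In 21 of 210 groups of 6 arrays, the highest or lowest array stood apart from the other 5 by more than Dixon's 95% critical value, and chance alone gives about 1 in 20, or 10.5 groups. Of the immediate early genes and stress genes, ERalphaKO-labelled male replicate 3 stood apart at 1008 for Fosb, 1325 for Fosl2, 4857 for Nr4a1 and, at the low end, 2626 for Sgk1. Wild type male replicate 3 was apart at 366.4 for Btg2, and wild type female replicate 3 at 3483 for Homer1 and 891.8 for Ddit3. Among the shared rises and falls, ERbetaKO-labelled arrays were apart at 318.8 for Fbln2 and 1428 for Ncs1 (female replicate 1), 776.9 for Zfp950 (male replicate 1) and 1898 for Adam15 (male replicate 3). Wild type male replicate 2 was apart at 3402 for Rnf208, 6504 for Haghl and 2574 for Srsf4. ERbetaKO-labelled male replicate 3 was apart at 8258 for Psmb7 and 82.0 for C030023E24Rik, wild type female replicate 1 at 133.7 for C030023E24Rik and ERalphaKO-labelled male replicate 2 at 131.7 for Krt83. For the receptors themselves, Esr1 read 86.8 on ERalphaKO-labelled male replicate 3, and Esr2 read 50.8 on wild type male replicate 3 and 78.2 on ERalphaKO-labelled female replicate 1.

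The lines differed, as ERalphaKO-labelled minus ERbetaKO-labelled on the log2 scale and by limma's test of that difference, for Esr1 (-0.44), Esr2 (-1.77), Egr2 (-0.73), Krt83 (-0.80) and Eif5 (-0.20). They also differed, in the other direction, for Rnf208 (0.30), Tmcc2 (0.25), Klf4 (0.55), Hspa1b (0.66), Foxo4 (0.76), Tmem267 (0.72), Zfp423 (0.71) and C030023E24Rik (0.58). For Tango6 the knockout difference in FB arrays exceeded that in MB arrays by 1.91.

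The 9160 probe sets with no gene symbol entered no comparison above. In a separate pooled fit, adjusted over all 45037 non-control probe sets, 198 of them had an adjusted p under 0.05, 173 higher and 25 lower in the knockouts. Of the 34945 probe sets with 1 symbol, fitted by themselves, 698 did, 377 higher and 321 lower.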

How the results depend on the processing

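The pooled count of 365 called genes became 224 with arrays scaled to a common median, 551 with array weights, 623 and 593 when the lines were averaged from a mean per genotype or per group of 3, 553 after adjusting for the cerebellar score, 172 after adjusting for the Actb ratio (107 higher, 65 lower), and 698 when all probe sets were counted (54.0% higher). Taking the probe set with the largest spread gave 294 (52.4% higher). On fewer arrays it was 2 (FB alone), 6 (MB alone) and 4 (Pcp2 of at least 500), with 2, 3 and 2 immediate early genes. With 1 array left out it ran from 158 to 450, and the immediate early genes called from 11 to 16. The ERalphaKO-labelled line's 773 became 367 with median scaling (411 to 940 with 1 array left out) and the ERbetaKO-labelled line's 918 became 1572 (449 to 1009). Genes differing between the lines ran from 1080 to 2134. The count of sex-dependent genes was 0 with a pseudocount of 1 or a filter at the 40th or 60th percentile, and 0 to 1 with 1 array left out. The causes were not tested.

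Signs turned for Zfp950 (-0.63), Mt1 (0.24), Ddit3 (0.18) and Hnrnpl (0.26) when the probe set with the largest spread was taken, which for these is another probe set. In that setting 46 of the 365 called genes had the opposite sign and 182 were still called. They turned for Esr1 (-0.12), Bdnf (-0.04) and Nptx2 (0.17) with the Actb ratio, for Bdnf (-0.03) and Tango6 (0.81) in FB arrays, and for Jun (0.14) and Nptx2 (0.22) in MB arrays. With 1 array left out Jun ran from -0.11 to 0.00, Nptx2 from -0.24 to 0.05 and Tango6 from -0.32 to 0.01. Of 54 named genes past the threshold, 28 stayed past it under every setting but the 3 on fewer arrays, and 35 with any 1 array left out.

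Groups share replicate numbers, but deviations of same-numbered arrays correlated from -0.31 to 0.33, so the numbers were not taken as pairs. With the replicate number as a replicate block the pooled count was 219, with 13 immediate early genes, and the counts of the lines were 780 and 679. Array number limits all of these.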

Other observations

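Markers of brain regions and of other neurons gave no call in the pooled comparison. All 12 thalamic markers had negative differences (median -0.30, 2 with an unadjusted p under 0.05), the median being -0.02 in the ERalphaKO-labelled and -0.48 in the ERbetaKO-labelled line. The 14 striatal markers had a median of -0.20 and the 18 hypothalamic neuropeptides one of -0.01, none with an unadjusted p under 0.05. The 16 markers of cortical and hippocampal excitatory neurons had medians of -0.15 and 0.31 in the 2 lines. Of 18 glutamate receptor subunits 3 had an unadjusted p under 0.05, and of 24 potassium channel subunits 3, against 2749 of all 18161 genes. None of 15 genes of cholesterol synthesis and uptake had such a p.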
